A study of Mus musculus with 60 samples.

Results

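FGF signalling genes were followed in nascent RNA of mouse embryonic stem cells after knockdown of Esrrb, an orphan nuclear receptor of the naive pluripotency network. The set holds 10 genes of the 21334 with a signal above 0 in at least 1 library. They are 5 ligand genes (Fgf3, Fgf4, Fgf8, Fgf15 and Fgf17), the 4 receptor tyrosine kinase genes Fgfr1 to Fgfr4, and Frs2, which encodes the docking protein that joins an activated FGF receptor to RAS and ERK. Members were taken by symbol with no expression minimum, and the RefSeq transcript with the highest RPKM (read density per kilobase of span, relative to the library total) summed over all libraries stood for each gene.

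FGFs are secreted proteins that bind their receptors together with heparan sulfate on the cell surface. The receptors dimerise, phosphorylate FRS2 and switch on the RAS-ERK cascade. In mouse embryonic stem cells FGF4 made by the cells themselves is the best known source of this signal. It primes the cells to leave the naive state, and in the blastocyst it directs inner cell mass cells toward primitive endoderm.

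All 4 libraries came from E14 cells, an established mouse embryonic stem cell line grown in serum and LIF. The control cells (siCtrl) received a control siRNA and the knockdown cells (siEsrrb) an siRNA against Esrrb, with 2 libraries per group, and both were collected after 72 h. Chromatin-bound RNA was sequenced, so reads fall on introns as well as exons and report transcription more than stored mRNA. The labels do not state whether a group's libraries were grown as independent cultures, and the design text leaves this assay out where it promises biological replicates. The p-values therefore reflect library-to-library spread, which may be technical.

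The totals behind the RPKM were 24764879 and 68002338 reads in siCtrl (replicate 1, then 2, here and below) and 22363943 and 61857158 in siEsrrb. Replicate number therefore goes with depth, and also with the tools named in the processing notes, so each comparison is given within both numbers. RPKM are given below after scaling each library by a median-of-ratios factor. Esrrb itself (NM_011934) read 3.39 and 3.10 RPKM in the control libraries and 1.50 and 2.08 in the knockdown libraries. That was 44.2% and 67.0% of control. Of 12 stem cell markers 10 averaged at least 1 RPKM, with Dppa3 and Prdm14 below, and their summed level was 110.9 to 116.1 RPKM in siCtrl and 87.7 to 95.6 in siEsrrb; Esrrb, Klf4, Tbx3 and Fgf4 are among them. No marker of primitive endoderm (8 listed), trophectoderm (5), mesendoderm (6) or fibroblast feeders (9, with Lum at 0 or not listed) averaged 1 RPKM. None of these lists summed to more than 0.693 RPKM in any library. The trophectoderm sum was 0.448 and 0.507 RPKM in siCtrl and 0.693 and 0.633 in siEsrrb, without overlap. Sums of primitive endoderm, mesendoderm and feeder markers overlapped between the groups. Of 5 neuroectoderm markers 4 were detected, with Neurog2 at 0 or not listed. They summed to 5.46 and 4.73 RPKM in siCtrl and 8.06 and 7.70 in siEsrrb. Nes (4.23 RPKM on average, most of the sum) and Pax6 averaged at least 1 RPKM, and Sox1 and Tubb3 did not. The part of these markers in the results below was not tested.

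Within the set, the main stem cell ligand gene Fgf4 and the ligand gene Fgf17 were lower after knockdown. The ligand gene Fgf8 and the receptor genes Fgfr1, Fgfr2 and Fgfr3 were higher, and Frs2 stayed within a narrow range. All 10 members lay on the same side of control in both replicate numbers, 4 lower (32.4% of all genes) and 6 higher (34.5%). Over all genes 66.8% kept one side, and 76.7% of the 15302 genes with at least 20 reads per library on average (38.0% lower, 38.7% higher), a minimum that all 10 members passed. For 8 members the groups did not overlap, 3 lower and 5 higher (4 higher without library scaling, where Frs2 overlapped). Over all genes 39.3% were apart in this way (18.5% lower, 20.8% higher), and 43.5% of those with 20 reads (20.8% lower, 22.7% higher). A difference of at least 1.5-fold in one direction in both numbers was seen at 4 members, Fgf4 lower and Fgf8, Fgfr2 and Fgfr3 higher. The share over all genes was 10.1% (4.5% lower, 5.6% higher), and 6.69% with 20 reads (2.84% lower, 3.85% higher). The median log2 fold change was 0.17 over the members and 0.0022 over all genes.

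None of these differences passed the main test across genes, which has no term for replicate number. Limma, fitted to log2(RPKM + 0.1) of all 21334 genes, gave 0 genes an adjusted p under 0.05 (0.0% called, smallest adjusted p 0.135). An unadjusted limma p under 0.05 was found for 3 members, Fgf4 and Fgf17 lower and Fgf8 higher, and for 1964 genes in all, 9.21% (4.07% lower, 5.13% higher). With 20 reads it was 9.93% (4.48% lower, 5.45% higher). The adjusted p of the members ran from 0.402 to 0.960. The call depended on the model: limma's voom on recovered reads with replicate number as a block passed 7 members and 23.6% of the 15302 genes, whereas voom without the block and limma on RPKM with it passed 0 genes each. With 2 libraries a group, the smallest p of an exact permutation test is 0.333, and that test was left out. Differences are therefore described below by their size, their error and whether the groups overlap, without a call.

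**Figure D1:**
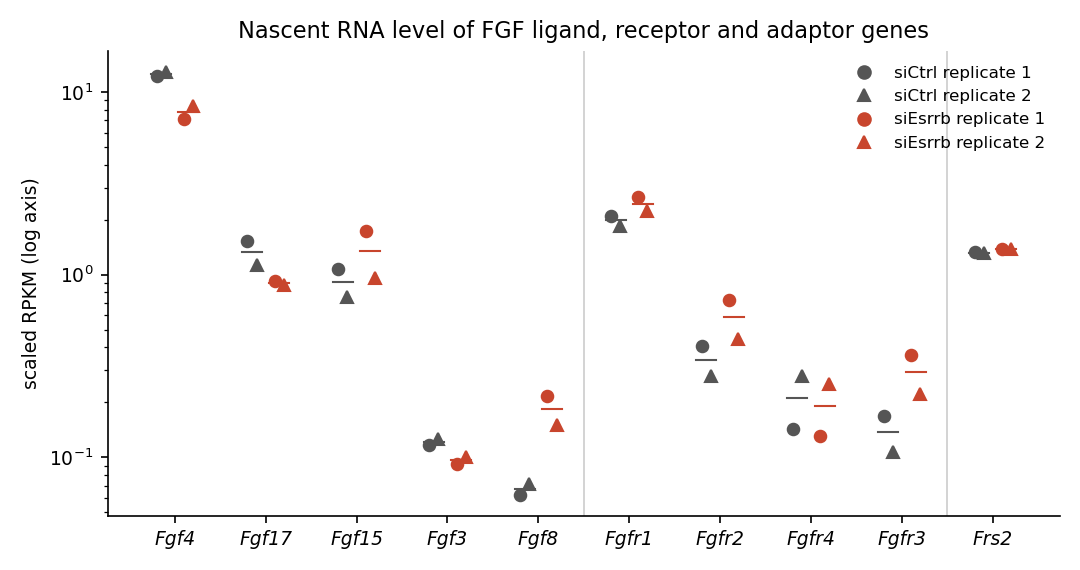
Scaled nascent RPKM (log axis) of the 10 genes in each library; circles are replicate 1, triangles replicate 2, grey siCtrl, red siEsrrb, and the short lines are group means. Fgf4 stands far above the other members in every library, and its siEsrrb points lie below both controls.

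Fgf4 had by far the highest level of the set. Its RPKM were 12.2 and 12.9 in siCtrl and 7.12 and 8.37 in siEsrrb, from 1110, 3659, 565 and 2107 reads. Both knockdown libraries lay below both controls, at 58.4% of control in replicate 1 and 64.9% in replicate 2. The group means were 12.5 ± 0.499 and 7.74 ± 0.882 RPKM (SD, n = 2 each). Limma fitted a log2 fold change of -0.69 (SE 0.11, limma adjusted p 0.402). Counting error alone gave 95% intervals of 52.7% to 64.7% and 61.5% to 68.5% for the 2 ratios (exact Clopper-Pearson on the reads of each pair, which covers neither culture nor library preparation).

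Fgf17, a ligand of the Fgf8 subfamily, was the other ligand gene of this set above 1 RPKM in siCtrl that was lower. It had 1.54 and 1.14 RPKM in siCtrl and 0.922 and 0.874 in siEsrrb. The groups did not overlap, but the control libraries differed among themselves by more than the knockdown libraries did. The fitted log2 fold change of Fgf17 was -0.51 (SE 0.17, limma adjusted p 0.525; -0.31 without siCtrl replicate 1), with 60.0% of control in replicate 1 and 76.9% in replicate 2. In the annotation Fgf17 overlaps a noncoding gene, Gm38605, and the use of strand in the counting is not given in the sources used here.

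Fgf3, a ligand first known as a mammary tumour virus integration site, was nearly silent. It had 0.116 and 0.126 RPKM in siCtrl and 0.0924 and 0.100 in siEsrrb, from 13, 44, 9 and 31 reads. The groups did not overlap, and the ratio was 79.4% in both numbers. At this depth the counting intervals were 30.0% to 200.9% and 48.5% to 128.6%, so a difference was not detectable (log2 fold change -0.17, SE 0.10, limma adjusted p 0.700).

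Fgf15, the mouse ortholog of the endocrine ligand FGF19, was higher in each knockdown library than in the control of the same number. It had 1.07 and 0.754 RPKM in siCtrl and 1.74 and 0.957 in siEsrrb. The groups overlapped, because siEsrrb replicate 2 lay below siCtrl replicate 1. The ratio was 1.62-fold in replicate 1 (counting interval 1.26 to 2.08) and 1.27-fold in replicate 2 (1.06 to 1.51). For Fgf15 the fit gave a log2 fold change of 0.48 (SE 0.34, limma adjusted p 0.744), and it was 0.08 without siEsrrb replicate 1 and 0.88 without siEsrrb replicate 2. A noncoding gene, Gm26793, overlaps Fgf15 in the annotation.

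Fgf8, a ligand of gastrulation and of the isthmic organiser of the brain, had the largest ratio of the set at the lowest control level. It had 0.0626 and 0.0715 RPKM in siCtrl and 0.216 and 0.151 in siEsrrb, from 9, 32, 27 and 60 reads. Both knockdown libraries lay above both controls. The ratio was 3.44-fold in replicate 1 (counting interval 1.57 to 8.32) and 2.11-fold in replicate 2 (1.35 to 3.35). The log2 fold change was 0.75 (SE 0.16, limma adjusted p 0.417), and the added 0.1 RPKM shrinks it: it was 1.21 with 0.02 RPKM added and 0.27 with 0.5. All 4 Fgf8 transcripts in the files share a span and have the same values, so isoforms cannot be told apart.

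Fgf4 made up most of the ligand signal, and less of it after knockdown. Shares of the summed RPKM of 18 secreted FGF ligand genes do not depend on library scaling. Fgf4 held 76.7% and 81.6% of the sum in siCtrl and 66.1% and 76.1% in siEsrrb. Fgf15 held 6.76% and 4.77% in siCtrl and 16.1% and 8.71% in siEsrrb, so these 2 groups did not overlap. The RPKM of Fgf15 itself did overlap, and the sum that divides it was lower after knockdown. Fgf17 held 9.68% and 7.19% against 8.56% and 7.96%, with overlap, since it and the sum were both lower. Fgf8 held 0.394% and 0.452% in siCtrl and 2.00% and 1.37% in siEsrrb. The sum itself was 15.9 and 15.8 RPKM in siCtrl and 10.8 and 11.0 in siEsrrb.

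**Figure D2:**
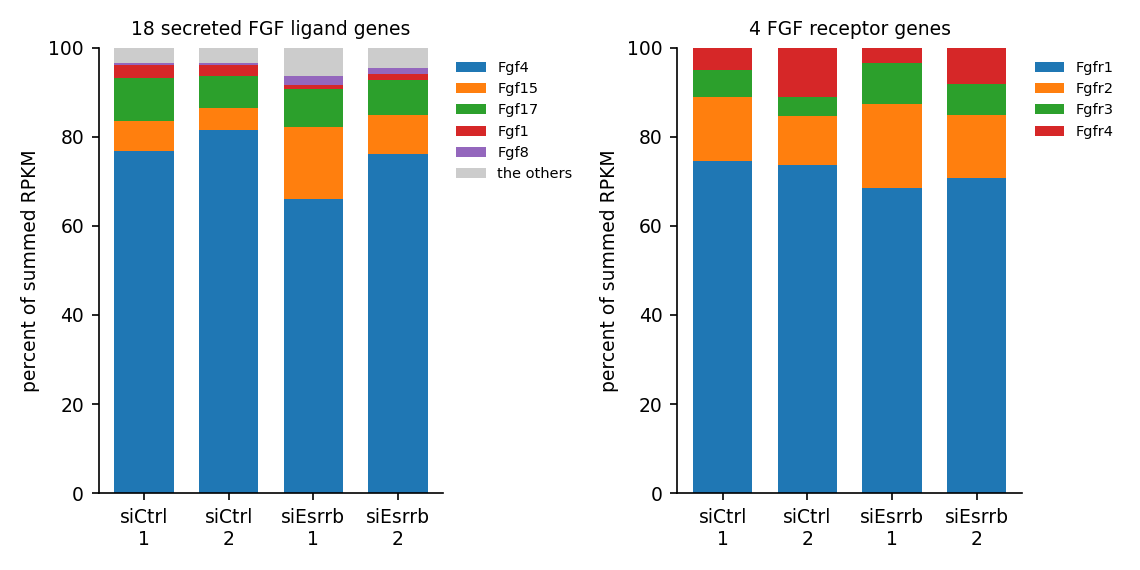
Percent of the summed scaled RPKM held by each gene in each library, for 18 secreted FGF ligand genes (left) and the 4 receptor genes (right). Fgf4 holds 66.1% to 81.6% of the ligand sum and Fgfr1 68.5% to 74.6% of the receptor sum.

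Fgfr1, the main FGF receptor gene of embryonic stem cells, had the highest level of the receptors in every library. It had 2.11 and 1.85 RPKM in siCtrl and 2.66 and 2.23 in siEsrrb, from 2836 to 8282 reads. Both knockdown libraries lay above both controls, with ratios of 1.26-fold in replicate 1 and 1.20-fold in replicate 2. On the log2 scale the difference was 0.29 (SE 0.13, limma adjusted p 0.603), and it was 0.16 without siEsrrb replicate 1. Of 2 noncoding genes that overlap Fgfr1, Gm16159 is in the files and had at most 0.0310 RPKM in any library.

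Fgfr2, whose IIIb and IIIc forms bind different ligands, had 0.406 and 0.280 RPKM in siCtrl and 0.730 and 0.445 in siEsrrb. The groups did not overlap, and replicate 1 was higher than replicate 2 in both. The long gene body gave 999 to 3031 reads, so that counting error was small beside the spread between numbers. The ratio was 1.80-fold in replicate 1 (counting interval 1.66 to 1.95) and 1.59-fold in replicate 2 (1.50 to 1.68). Its fitted log2 fold change was 0.62 (SE 0.29, limma adjusted p 0.624), and 0.31 without siEsrrb replicate 1.

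Fgfr3, a receptor best known for restraining growth of long bones, had low levels in both groups, which did not overlap. They were 0.169 and 0.107 RPKM in siCtrl and 0.362 and 0.223 in siEsrrb, from 59, 116, 110 and 215 reads. The ratios of 2.14-fold in replicate 1 (counting interval 1.55 to 2.99) and 2.09-fold in replicate 2 (1.66 to 2.64) were close to each other. The log2 fold change was 0.71 (SE 0.26, limma adjusted p 0.554), and 0.45 without siEsrrb replicate 1. The 5 Fgfr3 transcripts have 2 spans, 15345 and 14763 bases, and the same direction in both.

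Fgfr4, the receptor that with beta-Klotho takes up the FGF15 signal in liver, followed replicate number more than knockdown. It had 0.144 and 0.278 RPKM in siCtrl and 0.131 and 0.253 in siEsrrb. Replicate 2 was 1.94 times replicate 1 in siCtrl and 1.93 times in siEsrrb, whereas the knockdown ratios were 91.4% and 90.9% of control. The log2 fold change was -0.09 (SE 0.34, limma adjusted p 0.960), with a 95% interval of -1.04 to 0.87.

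Among receptors, Fgfr1 and Fgfr4 held a smaller share of the summed RPKM after knockdown in both numbers, and Fgfr2 and Fgfr3 a larger one. Fgfr1 held 74.6% and 73.6% of the receptor sum in siCtrl and 68.5% and 70.8% in siEsrrb. Fgfr3 held 5.99% and 4.24% in siCtrl and 9.34% and 7.09% in siEsrrb, with no overlap. Fgfr2 held 14.3% and 11.1% against 18.8% and 14.1%, which overlapped. Fgfr4 held 5.07% and 11.0% against 3.38% and 8.03%, which overlapped too.

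Frs2, the docking protein gene, had 1.33 and 1.31 RPKM in siCtrl and 1.38 and 1.38 in siEsrrb. After scaling, its libraries were the most alike of the set, from 2222 to 7565 reads. The groups did not overlap after scaling but did in the deposited RPKM, and the ratios were only 1.04-fold in replicate 1 and 1.05-fold in replicate 2. The log2 fold change was 0.06 (SE 0.08, limma adjusted p 0.859), with a 95% interval of -0.16 to 0.28. The values fitted for Fgf4 and Fgfr3 lay outside it. The 95% interval of Fgfr3, -0.03 to 1.45, overlapped that of Frs2, and that of Fgf4, -1.01 to -0.38, did not. Differences between genes were not tested.

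**Figure D3:**
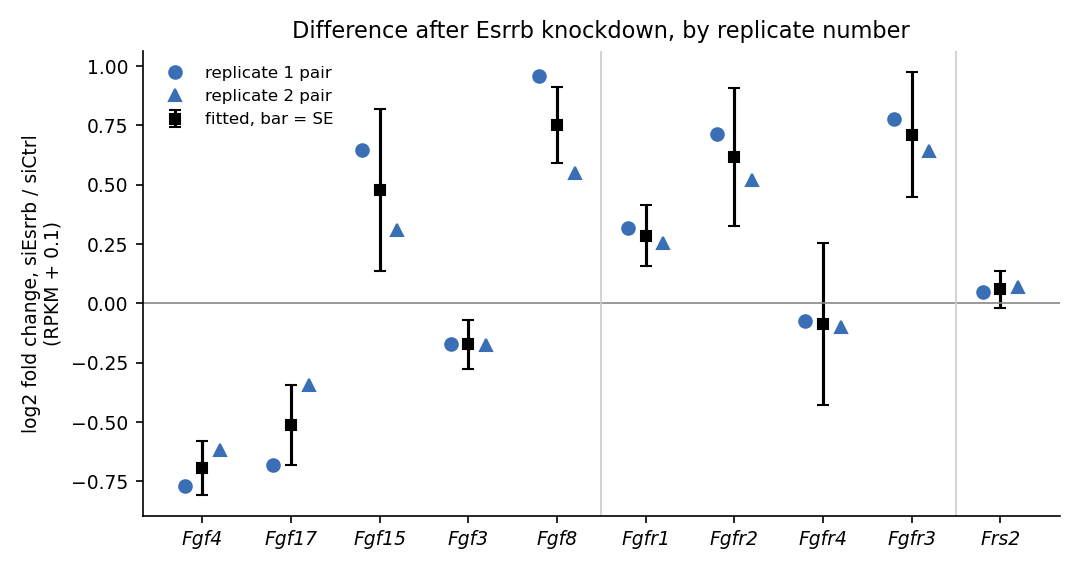
Log2 fold change of RPKM + 0.1, siEsrrb over siCtrl, for each gene; black squares with bars are the limma fit and its SE, blue circles and triangles the replicate 1 and replicate 2 pairs. Both pairs of every gene lie on the same side of 0.

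Differences were in general larger in replicate 1. There Esrrb was lower against its control, but the libraries were also shallower and had further tools named for them. These cannot be told apart here, and no link was tested. The log2 fold change of 7 of the 10 members was nearer 0 in replicate 2. Among all genes of one direction in both numbers 72.6% did the same, and 73.1% of those with 20 reads, a share close to that of the members.

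The order of levels placed Fgf4 first and Fgfr1 next in both groups. In siCtrl the level of Fgf4 was 6.33 times that of Fgfr1, and Fgfr1 was followed by Fgf17, Frs2, Fgf15, Fgfr2, Fgfr4, Fgfr3, Fgf3 and Fgf8. Libraries of Fgf17 and Frs2, of Fgfr4 and Fgfr3, and of Fgfr3 and Fgf3 overlapped, so these neighbours in the order were not separated. In siEsrrb Frs2 and Fgf15 came before Fgf17, and Fgf8 before Fgf3. There Frs2 overlapped Fgf15, Fgfr3 overlapped Fgfr4, and Fgfr4 overlapped Fgf8.

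Fgf3, Fgf4 and Fgf15 are neighbours in one ligand cluster, which bears on the question of the study, how loss of enhancer activity acts on genes within a chromatin domain. The 3 genes differed in direction. Fgf3 and Fgf4, which adjoin, were lower in both numbers, and Fgf15 on the other side of Fgf4 was higher in both. For Fgf3 the difference was within counting error, and the Fgf15 groups overlapped. Beyond Fgf3, the chloride channel gene Ano1 was near silent (log2 fold change 0.10, SE 0.04), and the death receptor adaptor gene Fadd had 0.227 and 0.258 RPKM in siCtrl and 0.390 and 0.399 in siEsrrb (0.53, SE 0.14). Ppfia1, a scaffold protein gene, followed with -0.05 (SE 0.10). Beyond Fgf15, LTO1 had 0.14 (SE 0.10), Ccnd1, the gene of cyclin D1, 0.36 (SE 0.22), and the lysosomal channel gene Tpcn2 0.16 (SE 0.08). Of these 9 genes 6 were higher in both numbers, as were 34.5% of all genes and 38.7% of those with 20 reads. No limma adjusted p was under 0.402. Annotated LTO1 and Ccnd1 overlap. Whether Fgf4 differs from its neighbours in response was not tested.

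**Figure D4:**
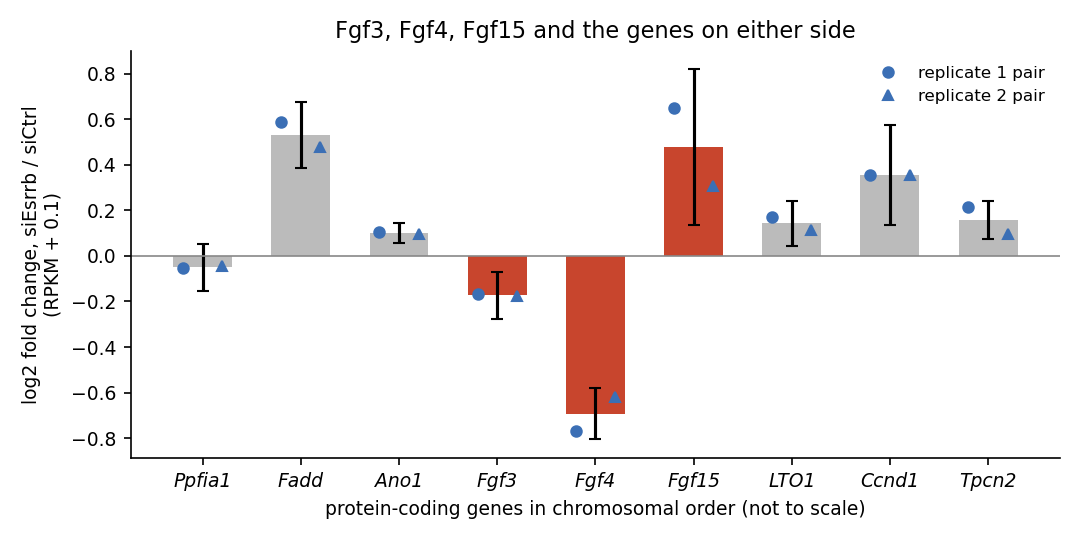
Log2 fold change of RPKM + 0.1, siEsrrb over siCtrl, for 9 protein-coding genes in chromosomal order around Fgf4 (bars, with SE; red marks the ligand genes), and for the replicate 1 and 2 pairs (circles and triangles). Fgf4, at -0.69, is the lowest bar and lies between Fgf3 at -0.17 and Fgf15 at 0.48.

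Neighbours of the other members showed a like difference in few cases. Next to Fgf17, Dmtn, which encodes the actin-bundling protein dematin, had 2.66 and 2.07 RPKM in siCtrl and 1.29 and 1.12 in siEsrrb. This was 48.4% and 54.2% of control (log2 fold change -0.91, SE 0.16, limma adjusted p 0.402), a larger difference than that of Fgf17, and its part in the signal of Fgf17 was not tested. On the other side, the oocyte gene Npm2 had -0.11 (SE 0.17). Either side of Fgfr2, Wdr11 had -0.07 (SE 0.10) and the arginyltransferase gene Ate1 -0.32 (SE 0.10), opposite in sign to Fgfr2. Beside Fgfr3, Tacc3 had 0.06 (SE 0.07) and the mitochondrial gene Letm1 -0.03 (SE 0.16). Beside Fgfr1, Tacc1 had -0.31 (SE 0.09) and Letm2 0.42 (SE 0.27). Fbxw4 and Npm3, around Fgf8, had 0.25 (SE 0.22) and 0.04 (SE 0.22), Zfp346 and Nsd1, around Fgfr4, -0.06 and -0.05, and Cct2 and Yeats4, around Frs2, 0.15 and 0.06.

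The sequence just before the start of transcription differed within the pairs of members shown here, each of which shared a direction. RefSeq promoters (GRCm38.p6) were found for 6 members, with 2 starts for Fgfr3. Shown are the 250 bases before the start, 5′ to 3′ on the strand of the gene. They are given for the adjoining ligands Fgf4 and Fgf3, both lower, although the Fgf3 difference was within counting error. They are also given for the receptors Fgfr2 and the downstream start of Fgfr3, both higher. Capitals mark GC boxes, GGGCGG on either strand. Fgf4 lies at chr7:144861136-144861385 (+), Fgf3 at chr7:144838362-144838611 (+), Fgfr2 at chr7:130266809-130267058 (-) and Fgfr3 at chr5:33722056-33722305 (+).
Fgf4: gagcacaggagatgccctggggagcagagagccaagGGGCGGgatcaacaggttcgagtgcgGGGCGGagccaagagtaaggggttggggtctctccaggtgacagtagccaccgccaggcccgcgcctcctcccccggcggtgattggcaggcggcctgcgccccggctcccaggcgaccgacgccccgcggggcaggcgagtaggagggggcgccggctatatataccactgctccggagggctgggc
Fgf3: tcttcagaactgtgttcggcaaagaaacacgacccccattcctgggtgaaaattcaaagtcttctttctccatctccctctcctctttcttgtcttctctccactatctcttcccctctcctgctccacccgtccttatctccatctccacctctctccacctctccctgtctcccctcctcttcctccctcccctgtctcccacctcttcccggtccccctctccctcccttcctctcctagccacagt
Fgfr2: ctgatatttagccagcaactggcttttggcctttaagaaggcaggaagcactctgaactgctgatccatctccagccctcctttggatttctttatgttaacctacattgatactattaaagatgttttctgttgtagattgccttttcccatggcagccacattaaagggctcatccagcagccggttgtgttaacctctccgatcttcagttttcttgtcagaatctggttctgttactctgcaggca
Fgfr3: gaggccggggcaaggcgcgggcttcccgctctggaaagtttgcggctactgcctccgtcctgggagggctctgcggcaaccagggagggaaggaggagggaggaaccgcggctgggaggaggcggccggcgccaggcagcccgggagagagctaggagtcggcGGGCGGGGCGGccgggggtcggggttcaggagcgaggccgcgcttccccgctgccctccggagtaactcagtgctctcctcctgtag

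Fgf4 held 2 GC boxes and 21 CpG dinucleotides at 71.2% GC, and Fgf3 held 0 and 4 at 55.2%. Fgfr3 held 2 GC boxes that overlap by their end base and 24 CpG at 72.8%, and Fgfr2 held 0 and 2 at 44.0%. The windows not printed were less unlike. Fgfr4, lower in both numbers, held 2 GC boxes and 15 CpG at 64.0%. Frs2, higher in both numbers, held 2 and 19 at 71.6%, and the upstream start of Fgfr3 held 3 and 19 at 66.8%. Only Fgf3 and Fgfr2 had no GC box. Over all 32851 promoters the median was 6 CpG and 52.4% GC, and 32.7% held a GC box. The core of the ERR binding sequence, AAGGTCA on either strand, was in 0 of the 7 member windows and in 4.08% of all promoters, and the longer TCAAGGTCA in 0.387%. TATAAA was likewise in 0 of the 7 and in 12.4% of all. A missing match says only that these letters are not in these windows.

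Other FGF ligand genes were mostly near silent. Of 17 listed, 9 had at least 20 reads per library on average, and 0 passed the adjusted limma test. Fgf1, a ligand that binds every FGF receptor, had 0.478 and 0.390 RPKM in siCtrl and 0.0996 and 0.141 in siEsrrb, 20.8% and 36.1% of control. Its log2 fold change was -1.28 (SE 0.19, limma adjusted p 0.402), further from 0 than that of any member. In the annotation Fgf1 overlaps Arhgap26 and Gm5820. Fgf5, a marker of the primed epiblast, had 0.0538 and 0.0214 RPKM in siCtrl and 0.157 and 0.0731 in siEsrrb, without overlap (0.63, SE 0.25, limma adjusted p 0.570). Fgf2, often added to cultures of primed cells, had at most 0.0155 RPKM in any library, and it overlaps Nudt6. The intracellular homologous factor genes Fgf11 to Fgf14, which are not secreted, ran from -0.03 to 0.15. Fgf12 to Fgf14 lay below the added 0.1 RPKM, which shrinks their values. Fgf14 stood at 168.2% and 192.9% of control, with the groups apart, and in the annotation it overlaps Itgbl1. Fgf12 was also higher in both numbers, while Fgf11 and Fgf13 differed in sign between the numbers.

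Coreceptor and binding protein genes were higher as often as not. Of 8 with 20 reads, 5 were higher and 3 lower in both numbers (38.7% and 38.0% of all genes with 20 reads), with a median log2 fold change of 0.16 beside 0.0026 over such genes. Over all 11 listed the median was 0.12, and it was 0.04 without siCtrl replicate 1. Fgfbp1, a carrier that frees FGFs from the matrix, had 0.57 (SE 0.14). Fgfrl1, a receptor without a kinase domain, had 0.31 (SE 0.13), the inhibitor gene Il17rd 0.19 (SE 0.08) and the adhesion gene Nptn -0.19 (SE 0.09). Among 29 heparan sulfate genes with 20 reads, 10 were higher and 12 lower in both numbers, with a median of -0.0027. The glypican genes Gpc1 (0.47, SE 0.16) and Gpc2 (-0.22, SE 0.08) had opposite signs, and the sulfotransferase gene Hs2st1 and the epimerase gene Glce had -0.22 and -0.23.

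Downstream of the receptors, higher and lower genes were about equally many in each list. Over all genes with 20 reads, 38.7% were higher and 38.0% lower in both numbers. The 12 receptor adaptor genes had a median of -0.04, with 4 higher and 5 lower in both numbers. Grb2, which brings SOS to FRS2, had -0.29 (SE 0.11), Crkl -0.19 (SE 0.08) and Shc1 0.21 (SE 0.10). The 16 RAS-ERK genes had a median of -0.06, with 7 higher and 8 lower. Mapk3, the gene of ERK1, had 0.39 (SE 0.08), and Map2k1, the gene of MEK1, had -0.37 (SE 0.09). The 19 ERK target and feedback genes had a median of -0.03, with 8 higher and 8 lower. That median turned positive without siCtrl replicate 1 (0.18) and without siEsrrb replicate 2 (0.09). Etv4, an ETS factor, stood at 32.4% and 42.0% of control, Spred2 had -0.39 (SE 0.07), Spry4 -0.61 (SE 0.31) and Dusp6, the ERK phosphatase gene, 0.20 (SE 0.09). Limma passed 0 genes of any of these lists over all genes. Outside the RAS-ERK list, an unadjusted limma p under 0.05 was found for 2 of 19 ERK targets, both lower, and 1 gene each way of 30 heparan sulfate genes. It was also found for 1 of 11 coreceptor genes, higher, and 1 of 17 ligand genes, lower. Over all genes the shares were 4.07% lower and 5.13% higher.

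**Figure D5:**
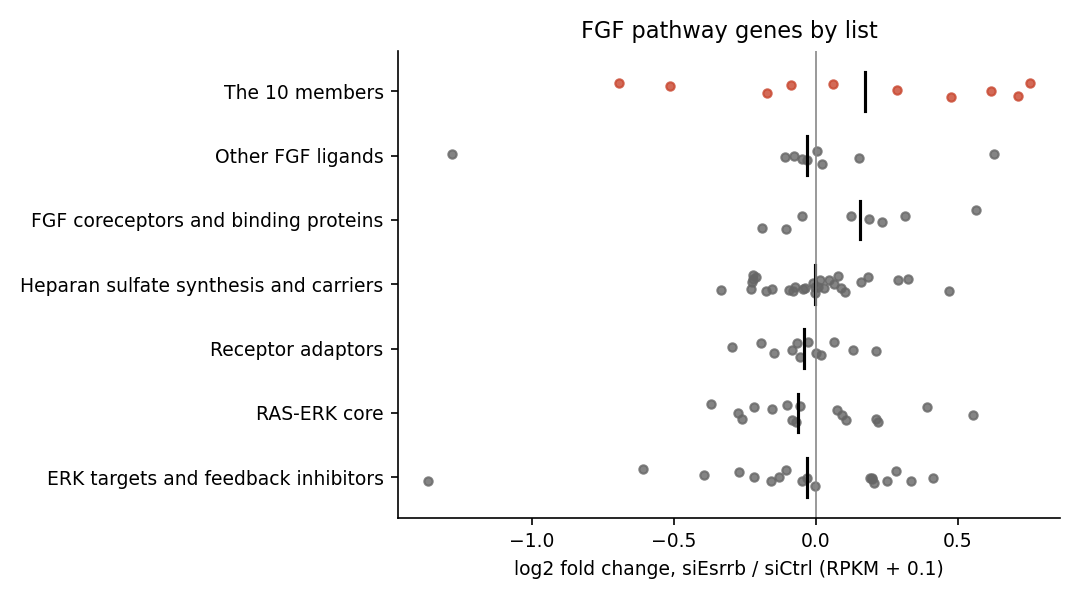
Log2 fold change of RPKM + 0.1, siEsrrb over siCtrl, for the 10 members and for other FGF pathway genes with at least 20 reads per library on average; each point is a gene and the black line is the median of its list. Medians run from -0.06 for the RAS-ERK core to 0.17 for the members.

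Genes whose pattern over the 4 libraries was nearest to that of Fgf4 were the deubiquitinase gene Usp48, Shisa7 and the ubiquitin ligase gene Arih2. Their root-mean-square distances from Fgf4 in centred log2(RPKM + 0.1) were 0.0235, 0.0249 and 0.0331, among 15302 genes. Usp48 had 9.52 and 9.92 RPKM in siCtrl and 5.47 and 6.70 in siEsrrb. With 4 libraries, many genes can match a pattern this closely.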

How the data were processed

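Nascent RNA-seq of 4 libraries (2 siCtrl, 2 siEsrrb) was used; the 56 other samples of the series were not analysed here. The authors deposited RPKM for 34929 RefSeq transcripts per library. CASAVA 1.4, TopHat2 and build mm9 are named for all libraries per the submitters' processing notes, with Bowtie 1.1.1 and Bowtie2 besides for replicate 1. The counting program, annotation version, strand use and filters were not given in the sources used here. A table of the whole series repeats replicate 1 at all 34929 transcripts and was not used. Replicate numbers come from the titles for replicate 2; the earlier pair carries none.

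Symbols were matched through RefSeq of GRCm38.p6 (34631 transcripts, 24260 symbols; 298 without a symbol were left out). Library totals, spans and whole reads were recovered from the RPKM, with the annotated gene length as a guide. All 31771 transcripts above 0 gave whole reads within 0.001, but spans were chosen to do so, and this is no check. Of 12549 single-transcript genes with at least 20 reads over all libraries, 72.1% had a span within 1% of the annotated length. Spans include introns. RPKM were scaled per library (median-of-ratios factors 0.925 to 1.09 over genes above 0.5 RPKM in every library), 0.1 RPKM was added, and log2 values were fitted with limma 3.58.1 in R 4.3.3 (eBayes with trend, no replicate block), two-sided, with Benjamini-Hochberg adjustment over all 21334 genes and a threshold of 0.05. Fold changes on the log2(RPKM + 0.1) scale understate the change of low genes, while percentages and ratios of control carry no pseudocount. The fit was tested only on simulated counts without a difference between replicate numbers, unlike these libraries. How it behaves with such a difference was not tested.

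The members, lists and tests were chosen with earlier results of these data known. Named genes are the members, their nearest detected protein-coding neighbours, and up to 4 genes per list. The latter had the smallest limma p among those with 20 reads. Gm16159, further genes around Fgf4 and the homologous factors other than Fgf14 were added after their values were seen. Alternatives covered the pseudocount, filters on low values, scaling, transcript choice, the replicate block, voom on recovered reads, and leaving out each library. Results on some genes are not reported here.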

Additional observations from a re-analysis of the deposited data

How the results depend on the processing

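No gene passed the adjusted test in 13 of 14 alternatives, leaving out each library included (0 to 0 genes, and 0 to 0 members). The exception was voom on recovered reads with the replicate number as a block, which passed 3610 of 15302 genes (23.6%) and 7 of 10 members: Fgf4 (-0.68), Fgf17 (-0.49), Fgf15 (0.47), Fgf8 (1.29), Fgfr1 (0.30), Fgfr2 (0.75) and Fgfr3 (1.07), with adjusted p from 7.91e-06 to 0.0294. Voom without the block passed 0 genes (unadjusted p under 0.05 for 1823), and limma on RPKM with the block passed 0. No label says that the numbers pair the libraries. Replicate differences in siCtrl and in siEsrrb correlated with r = 0.65 across 15302 genes, and these libraries also share depth and tools. Of the members only Fgfr4 changed sign under an alternative: 0.23 without siCtrl replicate 2 and 0.22 without siEsrrb replicate 1, in a leave-one-out range of -0.40 to 0.23. Over all alternatives that fitted them, Fgf4 ran from -0.81 to -0.58, Fgf17 from -0.71 to -0.31, Fgf15 from 0.08 to 0.88, Fgf8 from 0.27 to 1.29, Fgfr1 from 0.16 to 0.41, Fgfr2 from 0.31 to 0.92 and Fgfr3 from 0.31 to 1.07. With a minimum mean of 0.5 RPKM, 5 members (Fgf3, Fgf8, Fgfr2, Fgfr3 and Fgfr4) could not be fitted, and no other FGF ligand gene was left. Counts of members by direction and by overlap were the same with TMM factors and the other transcript choice; without scaling, 4 rather than 5 members lay higher without overlap, since Frs2 then overlapped. List medians ran from 0.04 to 0.25 for coreceptors, -0.09 to 0.18 for ERK targets (positive in 3 of 14 alternatives) and -0.44 to -0.0021 for other secreted ligands. Depth limits Fgf3 and Fgf8, with 9 to 60 reads per library.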
